A study of Mus musculus with 9 samples.

Results

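RNA-seq counts of 6 mouse tumours were compared: 3 that carried MycT58A and 3 that carried an empty vector, out of 9 libraries in the series. The members are these 6 libraries, taken by their genotype labels, and all 24444 gene symbols of the count table. Of these symbols, 15171 had enough reads to be tested and 4711 had no count in any library. The tumours are a model of WNT medulloblastoma, a childhood tumour of the hindbrain. The implanted cells were grown in CD1-nude mice, athymic hosts with few T cells. Both tumour groups carry the same alleles: Blbp-Cre, driven by the Blbp (Fabp7) promoter of radial glia, Ctnnb1Ex3flx/flx, whose loss of exon 3 stabilises beta-catenin, with Trp53flx/flx, and with Pik3caE545K +/flx, an active form of the PI3-kinase subunit. They differ by label in the vector, which is EV or MycT58A. The age of the mice is not given. GFP-positive regions were cut from the tumours, so host cells of the region can be in the RNA. The other 3 libraries are normal cerebellum of CD1-nude mice, which the growth protocol calls cortex, and they serve here as a background level and share the estimate of spread. The design text calls the libraries of a condition biological replicates, but no label says whether each tumour grew from its own batch of cells; p-values measure only the spread between these libraries.

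MYC is a transcription factor that binds DNA together with its partner MAX, with a preference for the letters CACGTG (the E-box). It raises the transcription of genes for ribosomes, nucleotides, mitochondria and the cell cycle, and it can hold down other genes by binding partners such as MIZ1. Its level is kept low by phosphorylation and rapid breakdown, and the MycT58A form lacks the threonine that starts the breakdown, so that the protein lasts longer. In human medulloblastoma, high MYC is best known from aggressive tumours outside the WNT group, and MYC is also a classical target of WNT signalling.

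Myc itself (chr15:61985391-61990374, mm10) was read first, since it checks the labels. In CPM (counts relative to the TMM-scaled library total, used for every level below), it was at 918, 859 and 727 in the MycT58A tumours and at 360, 19.9 and 762 in the empty-vector tumours. It was at 0.94, 1.59 and 32.0 in the control libraries. The library labelled empty vector 3 lies within the range of the MycT58A tumours for Myc, so the groups overlap. An empty-vector label does not fix the level of genomic Myc. Genes chosen below for groups that do not overlap cannot check the label of this library, and the label was not tested. The log2 fold change was 1.13 with an SE of 1.37, and the adjusted p was 0.592. The table counts all reads of the symbol, so vector and genomic transcripts cannot be told apart. Pvt1, a long noncoding RNA gene next to Myc, was at 96.4, 3.74 and 260 CPM in the empty-vector tumours and at 8.28, 7.91 and 4.86 in the MycT58A tumours. Among the empty-vector libraries Pvt1 and Myc have the same order. The total level of the genes with shared alleles overlapped between the groups. Ctnnb1 was at 1019, 1088 and 1046 CPM with the empty vector and at 1040, 1079 and 989 with MycT58A, and Trp53 and Pik3ca also overlapped. Counts per symbol do not show loss of an exon, recombination or the E545K change, so the state of these alleles was not tested.

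Total counts were 16631523 to 30410089 per library, with 16575 to 17473 genes detected. The MycT58A tumours were alike and the empty-vector tumours were not. The median absolute log2 difference over genes was 0.15 to 0.176 between pairs of MycT58A libraries, 0.405 to 0.638 between pairs of empty-vector libraries and 0.370 to 0.637 between the groups. For 87.0% of tested genes, the SD was larger among the empty-vector libraries. Empty-vector library 2 stands furthest from the others and library 3 lies nearest to the MycT58A tumours.

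With all 9 libraries in 1 fit (edgeR quasi-likelihood, Benjamini-Hochberg adjusted p under 0.05, here called), 1259 genes or 8.3% differed between the tumour groups. Of these, 498 (3.28%) were higher with MycT58A and 761 (5.02%) were lower. The median fold was 2.25 for the higher and 4.38 for the lower genes, and 58 genes rose and 155 fell by over 10-fold. Without regard to the test, the 3 values of 1 group lay wholly above those of the other for 2762 genes (18.2%) that were higher and 2066 genes (13.6%) that were lower. These shares of all genes are the background for every count of list members below. Among the 1259 called genes, the groups did not overlap for 1247 (99.0%). The number of calls varied with the libraries in the fit. With only the 6 tumour libraries in the fit, 34 of 14144 genes (0.24%) were called, 10 higher and 24 lower, and all 34 were among the 1259. The spread of the controls enters the 9-library fit and not the other, and its part in this fall was not tested. Without empty-vector library 3 the number was 3977, without library 2 it was 2565 and without library 1 it was 1924. Leaving out 1 MycT58A library left 36 to 70 calls, and leaving out 1 control left 311 to 363. Scaling by library size alone gave 301 higher and 938 lower genes and moved the median log2 difference of all genes from -0.04 to -0.17.

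**Figure D1:**
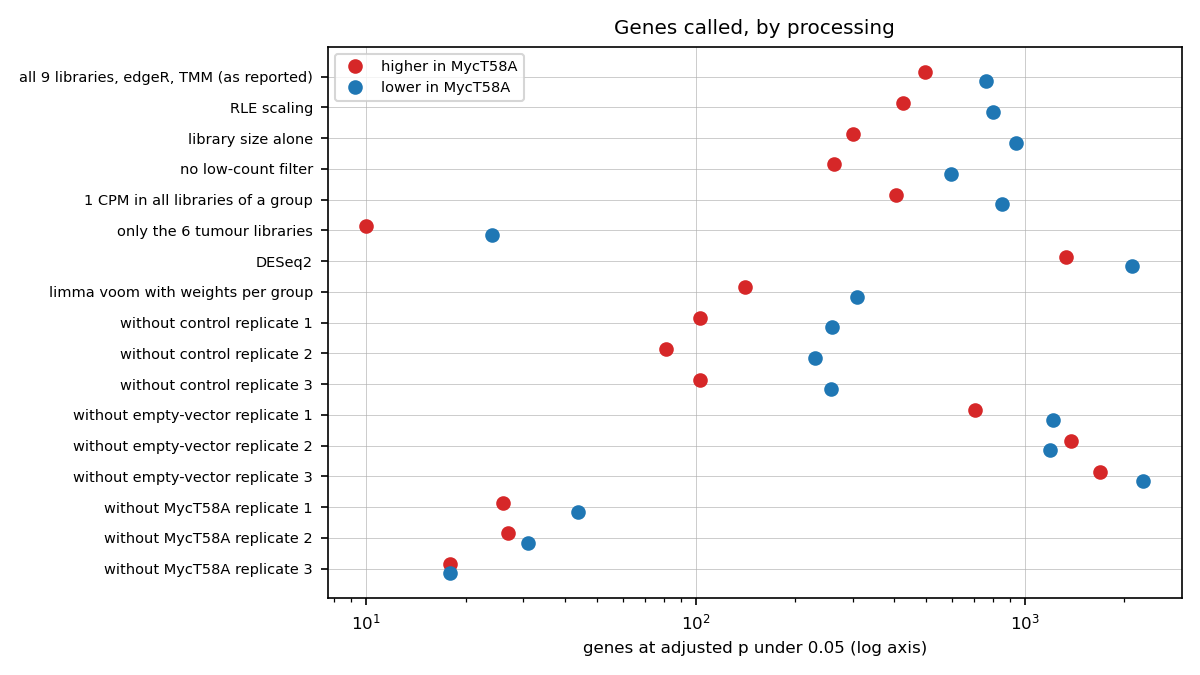
Number of genes called higher (red) and lower (blue) in MycT58A than in empty-vector tumours, on a log axis, for the 9-library fit and 16 alternatives. Higher and lower genes together number 34 with only the 6 tumour libraries and 3977 without empty-vector replicate 3.

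Genes with the widest separation between the groups were described next, together with genes called in both fits. A set of 30 is shown by the gap between the nearest libraries of the 2 groups, 15 in each direction. Pou3f4, a POU factor of the developing neural tube and inner ear (chrX:110814280-110817207), was at 0.343, 0.127 and 0.283 CPM with the empty vector and at 128, 141 and 90.4 with MycT58A. Every MycT58A library was above the controls too, which were at 3.35, 5.54 and 4.39. The log2 fold change was 8.86 with an SE of 0.45 and an adjusted p of 0.000256, and it was called under all 16 alternatives. Pax3, a paired-box factor of the dorsal neural tube and neural crest, was at 1.71, 3.82 and 1.98 CPM with the empty vector and at 36.1, 32.1 and 49.0 with MycT58A. Its fold of 15.6 (log2 SE 0.39, adjusted p 0.00481) also stayed called under all 16. Eya4, a phosphatase that also acts as a transcriptional coactivator, went from 0.274, 0.340 and 0.170 CPM to 3.81, 5.04 and 5.46. These values do not overlap, and the controls lay at 0.613, 0.532 and 0.467.

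Foxa2, a forkhead factor known from endoderm and ventral midline cells, was at 0, 0.595 and 0.0567 CPM with the empty vector and at 39.2, 32.1 and 54.3 with MycT58A. The fitted fold of 188 rested on the 15 reads of the empty-vector tumours and became 1556 without library 2 and 120.5 without library 1. Tbx1, the T-box factor of the pharyngeal arches, was at 0.0685, 1.74 and 0.624 CPM against 19.8, 20.1 and 17.1, a fold of 23.4 that became 59.7 without library 2. Insm1, a zinc-finger factor of dividing neuronal and endocrine precursors, was at 0.0343, 0.467 and 3.97 CPM against 45.9, 43.9 and 43.4. Its fold of 30.6 became 184 without library 3, the empty-vector library with the highest Insm1, and 20.4 without library 1. None of these 3 was called with the 6 tumour libraries alone.

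Among signalling genes, Slit1, the axon repellent that binds ROBO receptors (chr19:41600257-41743665), was at 1.2, 3.44 and 1.98 CPM with the empty vector and at 40.8, 56.1 and 79.8 with MycT58A. That is a 26.7-fold difference (log2 SE 0.52, adjusted p 0.00598). Met, the receptor of hepatocyte growth factor, was at 1.85, 2.12 and 2.15 CPM against 16.4, 17.6 and 23.9, a 9.44-fold difference (adjusted p 0.0130). Stap1, an adaptor of receptor tyrosine kinases best known in B cells, was at 0.308, 0.764 and 0.340 CPM against 21.6, 18.9 and 41.9. Slit1, Met and Stap1 were all called with the 6 tumour libraries too. Irs4, an adaptor that carries insulin signals to PI3-kinase, had 0 counts in the controls. It was at 1.37, 0.255 and 0 CPM with the empty vector and at 25.8, 12.5 and 27.7 with MycT58A, a fold of 38.5 that became 153 without library 1. Prkcq, the theta form of protein kinase C, was at 0.343, 11.8 and 11.5 CPM against 106, 104 and 164. Nptx2, a neuronal pentraxin of excitatory synapses, was at 0.548, 19.9 and 4.37 CPM against 195, 235 and 170, a fold of 24.2 that became 85.2 without library 2. Fez1, a kinesin adaptor of axons, went from 4.52, 5.44 and 3.17 CPM to 37.1, 36.0 and 26.4. It lay far under the controls, at 277, 243 and 190, in both tumour groups. Entpd6, an enzyme that removes phosphates from nucleotides, was at 8.56, 6.67 and 8.85 CPM against 37.0, 37.9 and 45.7. Both Fez1 and Entpd6 were called with the 6 tumour libraries.

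Of the genes that were lower, Hand2, a bHLH factor of heart, limb and sympathetic neurons (chr8:57320983-57324633), was at 29.0, 64.5 and 37.9 CPM with the empty vector and at 0.288, 0 and 0.213 with MycT58A. The controls were at 0, 0.133 and 0, so its transcripts were near absent in both of those groups. The log2 fold change was -8.01 with an SE of 1.05 and an adjusted p of 0.00936. Leaving out MycT58A library 2, with no reads of it, gave a fold of 169, and leaving out MycT58A library 1 gave 411. Plxna4, a plexin that takes part in semaphorin signals, was at 33.2, 32.7 and 45.4 CPM against 3.96, 3.62 and 3.07, and at 90.6, 116 and 82.8 in the controls. Its log2 fold change of -3.38 had an SE of 0.24 and an adjusted p of 0.00146. Serpinb6b, an inhibitor of serine proteases, was at 14, 24.2 and 8.90 CPM against 0.468, 0.745 and 0.341. Tlr12, a Toll-like receptor, was at 12.2, 15.7 and 13.4 CPM against 1.87, 0.994 and 1.36. Dapl1, a gene of epithelial and retinal differentiation, was at 29.0, 20.2 and 55.6 CPM against 2.70, 2.73 and 2.69. Fam198b, a Golgi glycoprotein gene, was at 34.6, 38.1 and 29.4 CPM against 1.11, 1.77 and 1.36, so that all 3 MycT58A libraries lay near or under the controls (2.29, 2.92 and 1.54).

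**Figure D2:**
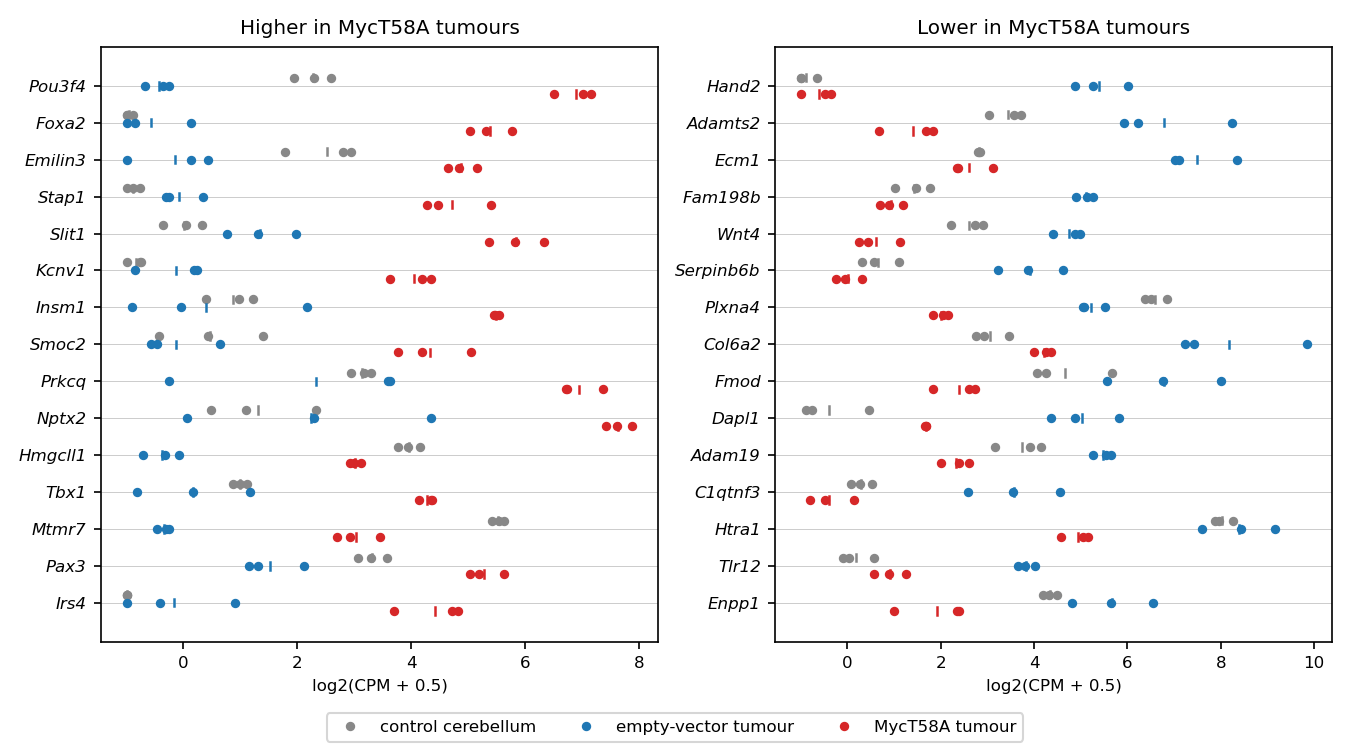
Level of 30 genes as log2(CPM + 0.5) in each library, 15 higher and 15 lower in MycT58A tumours, with control cerebellum in grey, empty-vector tumours in blue and MycT58A tumours in red (points are libraries, bars are group means). The genes were chosen so that red and blue points do not overlap in any row. Pou3f4, at 90.4 to 141 CPM with MycT58A against at most 0.343 with the empty vector, has the widest gap on the left. Hand2 has the widest gap on the right.

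A further 6 of the 24 genes that were lower with only the 6 tumour libraries in the fit are given here. Anxa5, which binds phosphatidylserine on membranes, was at 304, 256 and 221 CPM with the empty vector and at 53.9, 49.1 and 36.4 with MycT58A. Pls3, which bundles actin filaments, was at 240, 243 and 323 CPM against 73.3, 79.3 and 59.2. Rhoc, a small GTPase of cell migration, was at 154, 140 and 75.3 CPM against 25.4, 19.4 and 16.1. For Anxa5, Pls3 and Rhoc the log2 fold changes were -2.49, -1.93 and -2.60, with adjusted p of 0.00378, 0.00481 and 0.00783. Abca1, which exports cholesterol to lipoproteins, was at 66.1, 96.5 and 48.9 CPM against 10.4, 9.79 and 14.4. St3gal5, the synthase of the ganglioside GM3, was at 96.5, 168 and 108 CPM against 23.3, 26.9 and 18.4. Optn, an autophagy receptor, was at 72.2, 49.8 and 45 CPM against 11.0, 12.5 and 8.40. All 6 of these genes had no overlap between the tumour groups, as had all 34 genes called with the 6 tumour libraries.

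Genes of growth and metabolism, the programme for which MYC is best known, mostly had small positive differences, and few of them passed the test. Over 14 lists of growth and cell-cycle genes (280 tested genes), the median log2 fold change was 0.71, against -0.04 for all genes. It was 0.44 without empty-vector library 2 and 1.01 without library 3. All 3 MycT58A values lay above all 3 empty-vector values for 145 of them (51.8%), against 18.2% of all genes. Of the 280, 20 (7.14%) were called higher and 7 (2.5%) lower, against 3.28% and 5.02% of all genes, and none was called with the 6 tumour libraries. The 23 cytosolic ribosomal proteins had a median log2 fold change of 0.85, with 20 above every empty-vector library and 2 called, and the median was 0.56 without empty-vector library 2. Near-identical copies make these genes uncertain. Their summed level was 42720, 19270 and 36010 CPM with the empty vector and 48980, 64440 and 54130 with MycT58A, while the controls had 6509 to 8319. Both tumour groups were thus above the controls, and empty-vector library 2 was the lowest tumour. Rpl13, of the large subunit, was at 1308, 970 and 1486 CPM against 2661, 3428 and 2943 (log2 fold change 1.26, SE 0.23, adjusted p 0.0222). Of 20 ribosome biogenesis genes, 19 had a positive difference, 10 lay above all empty-vector libraries and 1 (5.0%) was called, near the 3.28% of all genes. That gene is Ubtf, the factor that opens ribosomal DNA to RNA polymerase I, at 192, 169 and 190 CPM against 307, 315 and 315. The median of this list was 0.75, and it was 0.39 without empty-vector library 2 and 1.19 without library 3.

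In the serine, glycine and folate pathway with the ATF4 response, 3 of 20 genes were called higher and none lower, and the median was 1.12. Psat1, which makes serine, was at 144, 290 and 186 CPM against 544, 605 and 505 (log2 fold change 1.42, SE 0.26, adjusted p 0.0214). Aldh18a1, which starts proline synthesis from glutamate, was at 112, 88.1 and 92.3 CPM against 198, 295 and 196. Mthfd2, the mitochondrial folate enzyme, was at 53.4, 59.9 and 93.8 CPM against 119, 187 and 137. These 3 had no overlap between groups, as had 99.0% of all called genes. Of 20 aminoacyl-tRNA synthetases, Cars, Kars and Farsa were called higher, with a list median of 0.58 that was 0.37 without empty-vector library 2 and 0.89 without library 3. Kars, which loads lysine onto its tRNA, was at 235, 258 and 553 CPM against 872, 844 and 813. Of 18 genes of mitochondrial import, 3 subunits (16.7%) were called higher, against 3.28% of all genes. These are Tomm20 and Tomm40 of the outer membrane pore and Timm44 of the inner membrane motor. Tomm20, the import receptor, was at 270, 272 and 360 CPM against 682, 677 and 564 (log2 fold change 1.09, SE 0.19, adjusted p 0.0183). No gene was called among 21 of nucleotide synthesis (median 0.70) or 18 translation factors (median 0.59), where Paics and Eif2b3 had the smallest p, with adjusted values of 0.0509 and 0.0529. Without empty-vector library 2 these medians were 0.25 and 0.26, and without library 3 the first was 1.31. Of 21 glycolysis genes, 1 was called in each direction, near the shares of all genes (3.28% higher and 5.02% lower). Pdk1, which keeps pyruvate out of the mitochondria, was at 42.6, 28.4 and 106 CPM against 269, 248 and 188, a fold of 3.97 that became 6.58 without library 3. Hk1, the hexokinase of brain, was at 182, 262 and 131 CPM against 106, 96.2 and 78.7 and was called lower. The polyamine list had 1 called gene, Sat1, the enzyme that breaks polyamines down, which was lower at 27.1, 23.9 and 25.0 CPM against 60.1, 108 and 70.5.

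Where the called growth genes lie on the chromosomes was uneven. Of the 20 that were called higher, 7 are on chromosome 8: Farsa, Kars, Mcm5, Orc6, Rpl13, Timm44 and Tomm20. The lists have 16 tested genes there, and 15 of these lay above every empty-vector library. Without chromosome 8, 13 of the 264 remaining list genes were called higher, against 20 of 280 (7.14%) with it and 3.28% of all genes. The median log2 fold change was 0.70 without chromosome 8 and 0.71 with it. Genes of chromosome 8 that are on none of those lists were also called higher more often than the 3.28% of all genes: 74 of 758 (9.76%), with a median of 0.33.

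The letters CACGTG were looked for in promoter windows of RefSeq (GRCm38.p6, 250 bases before to 50 after each start). The word reads the same on both strands, and 7.15% of all 32851 windows hold it. Of the tested genes 78.7% have a window, of the called-higher 78.5% and of the called-lower 79.8%, and among those the word is in 11.4%, 15.9% and 9.72%. Coverage under 80% in each set makes a comparison of these shares void, so they are given as a description. Of the 20 called-higher growth genes, 17 have a window and 3 of those hold the word. The stretches below are shown because they belong to genes called higher (Aldh18a1 and Tomm20) and to genes called lower in both fits (Abca1 and Adam19), so the word occurs on both sides of the comparison. They are printed 5′ to 3′ on the strand of the gene, with CACGTG in capitals.
Aldh18a1, chr19:40588467-40588572, minus strand: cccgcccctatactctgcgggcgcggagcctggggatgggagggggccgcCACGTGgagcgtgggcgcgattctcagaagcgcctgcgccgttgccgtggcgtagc
Tomm20, chr8:126945992-126946097, minus strand: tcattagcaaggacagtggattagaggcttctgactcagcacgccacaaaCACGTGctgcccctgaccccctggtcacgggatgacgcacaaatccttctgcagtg
Abca1, chr4:53159987-53160092, minus strand: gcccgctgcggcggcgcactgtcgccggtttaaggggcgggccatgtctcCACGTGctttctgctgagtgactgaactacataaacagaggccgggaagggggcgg
Adam19, chr11:46054322-46054427, plus strand: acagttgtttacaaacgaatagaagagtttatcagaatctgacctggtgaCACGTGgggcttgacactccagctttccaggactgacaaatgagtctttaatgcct
In Aldh18a1 the word begins 59 bases before the RefSeq start, in Tomm20 126, in Abca1 147 and in Adam19 130. For Tomm20 and Adam19 the bases after that start were found in no GENCODE transcript of the gene, and the Adam19 stretch ends 1564 bases before the GENCODE gene. A match describes these letters only, and no binding was measured.

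Of the genes of DNA replication and mitosis, few passed the test, although their differences had 1 sign. All 25 replication genes had a positive difference, and 22 lay above every empty-vector library, against 18.2% of all genes. Of the 25, 4 were called higher (Mcm5, Lig1, Pcna and Orc6), against 3.28% of all genes. The list median log2 fold change was 1.05. The summed level of the list was 1796, 777.9 and 2537 CPM with the empty vector and 3939, 3374 and 3689 with MycT58A. Mcm5, part of the replicative helicase, was at 107, 70.5 and 164 CPM against 391, 308 and 367 (log2 fold change 1.65, SE 0.31, adjusted p 0.0226). Pcna, the sliding clamp, was at 146, 87.5 and 238 CPM against 450, 364 and 436. All 22 mitosis genes had a positive difference, with 18 above every empty-vector library. Only 1 (4.55%) was called, near the 3.28% of all genes called higher. The list median was 1.2, or 0.80 without empty-vector library 2 and 1.5 without library 3. The called one is Nusap1, a spindle protein, at 49.4, 21.1 and 60.0 CPM against 127, 111 and 152. Empty-vector library 2 was the lowest tumour in both sums.

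Cyclins and CDK inhibitors went both ways. Of 23 genes of cyclins, CDKs and their inhibitors, 5 (21.7%) were called lower and none higher, against 5.02% and 3.28% of all genes. The list median was 0.43, or 0.24 without empty-vector library 2. Ccnd1, the D cyclin that is a target of WNT signalling, was at 339, 740 and 426 CPM against 174, 208 and 161 (log2 fold change -1.47, SE 0.29, adjusted p 0.0261). Ccnd3, another D cyclin, was at 134, 88.5 and 150 CPM against 48.3, 45.3 and 45.6. The other 3 encode CDK inhibitors, which stop the cycle. Cdkn1a (p21) was at 107, 132 and 1176 CPM against 35.4, 37.1 and 30.2, a 13.8-fold difference that was 3.49-fold without empty-vector library 3. Cdkn1c (p57) was at 90.2, 192 and 268 CPM against 35.5, 37.3 and 41.7, and Cdkn2b (p15) at 11.5, 31.2 and 11.2 against 2.73, 5.71 and 2.73. For Cdkn2b the 4.82-fold difference was 3.05-fold without empty-vector library 2. All 5 had no overlap, as had 99.0% of all called genes. Among 22 p53 targets and apoptosis genes, Cdkn1a, Trp53inp1 and Plk2 (13.6%) were called lower, against 5.02% of all genes. The list went both ways: 7 differences were positive and 15 negative, with 3 genes above and 5 under every empty-vector library. The list median was -0.42, or -0.10 without empty-vector library 2. Trp53inp1, a stress-induced p53 cofactor, was at 88.4, 105 and 35.1 CPM against 13.8, 15.4 and 23.1. In the network of MYC partners, 1 of 18 genes (5.56%) was called, near the 3.28% of all genes called higher. That gene is Mxi1, a MAX partner that opposes MYC, which was higher at 151, 162 and 147 CPM against 99.8, 61.9 and 95.1.

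Of 13 tested WNT ligands, 5 were called lower with MycT58A and none higher, and 7 lay under every empty-vector library. Of all genes, 5.02% were called lower and 13.6% lay under every empty-vector library. None of the 10 tested receptors was called. Over the 23 ligands and receptors the median log2 fold change was -1.09, or -0.70 without empty-vector library 3. Wnt3 and Wnt5b had differences of 0.25 and 0.01 on the log2 scale. Wnt4, which acts in kidney, gonad and neural tube (chr4:137277489-137299726), was at 31.3, 28.8 and 20.8 CPM against 1.69, 0.852 and 0.682 (log2 fold change -4.64, SE 0.45, adjusted p 0.00476). Wnt5a, a ligand that works mostly without beta-catenin, was at 209, 169 and 176 CPM against 56.7, 58.3 and 54.6. Wnt4 and Wnt5a were called with the 6 tumour libraries too. Wnt6 was at 51.6, 83.8 and 96.6 CPM against 8.49, 15.8 and 11.2, Wnt10a at 36.1, 38.6 and 98.3 against 5.72, 13.6 and 4.77, and Wnt2 at 8.73, 9.17 and 1.30 against 0.216, 0.177 and 0. For Wnt10a the 7.18-fold difference was 4.63-fold without empty-vector library 3 and 10.9-fold without MycT58A library 2. The tumours carry stabilised beta-catenin in both groups. Among 24 feedback and target genes, 1 was called higher and 2 lower. These calls are 12.5% of the list, against 8.3% of all genes, and 12 differences were positive and 12 negative. The list median of -0.05 changed sign with weights per group and without empty-vector library 2. Nkd2, a feedback inhibitor of the pathway, was at 340, 69.5 and 145 CPM against 25.0, 38.0 and 19.9, a 6.70-fold difference that was 3.87-fold without empty-vector library 1. Cd44, a hyaluronan receptor, was higher at 154, 151 and 172 CPM against 57.2, 71.4 and 111. Nkd2 was near 1 in the controls (1.43, 1.68 and 0.653 CPM), and every tumour lay far above them.

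In the BMP and TGF-beta pathway, 5 of 23 genes were called lower and 1 higher, against 5.02% and 3.28% of all genes. The list median was -0.91, or -0.50 without empty-vector library 2. Tgfb1, the ligand, was at 71.0, 123 and 178 CPM against 16.5, 19.6 and 12 (log2 fold change -2.95, SE 0.35, adjusted p 0.00783). Bmp2 was at 62.2, 125 and 102 CPM against 45.8, 48.8 and 27.4. The receptors moved apart: Bmpr1a was lower at 142, 139 and 129 CPM against 311, 180 and 263, and Bmpr1b was higher at 5.65, 5.29 and 4.73 CPM against 1.30, 2.42 and 1.47. The feedback genes Smad6 and Bambi were lower, with Bambi, a decoy receptor, at 99.0, 98.6 and 352 CPM against 34.2, 28.3 and 19.3, a 6.71-fold difference that was 3.63-fold without empty-vector library 3. Pmepa1, a membrane protein that holds back TGF-beta signals and was not on that list, was at 73.4, 57.8 and 94.0 CPM against 12, 7.31 and 7.71, and was called with the 6 tumour libraries. No gene was called among 14 of the hedgehog pathway or 19 of the NOTCH pathway. Gas1, a hedgehog coreceptor, came nearest in the first, with values of 18.8, 24.1 and 2.61 CPM against 50.6, 40.6 and 42.4 and an adjusted p of 0.132. In the NOTCH list it was Hes1, a target repressor, with an adjusted p of 0.0749. In the FGF list 1 of 20 (5.0%) was called lower, near the 5.02% of all genes. That gene is Spry4, a feedback inhibitor of receptor kinases, at 9.53, 8.52 and 17.4 CPM with MycT58A against 51.5, 29.1 and 40.8. Of 25 insulin and PI3-kinase genes, Irs4 was higher and Igf1, a growth factor of many stromal and myeloid cells, was lower. These calls are 8.0% of the list, near the 8.3% of all genes called. Igf1 was at 12.6, 100 and 3.63 CPM against 2.09, 0.639 and 1.71, a 26.3-fold difference that was 5.50-fold without empty-vector library 2.

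Axon guidance genes were called in both directions. Of 26 tested, Slit1, Slit3 and Dcc were higher and Unc5b and Sema3f lower. These calls are 19.2% of the list, against 8.3% of all genes (3.28% higher and 5.02% lower). Slit3, another axon repellent, was at 0.171, 0.807 and 0.794 CPM against 7.16, 7.56 and 4.35. The netrin receptors went in opposite directions: Dcc was at 0.0343, 0.0849 and 0.113 CPM against 0.468, 5.25 and 2.52, and Unc5b at 510, 215 and 363 against 56.1, 66.4 and 29.9. For Dcc the 34.8-fold difference was 18.9-fold without MycT58A library 2, and for Sema3f the 10.1-fold difference was 5.13-fold without empty-vector library 2. For Unc5b the log2 fold change was -2.83 with an SE of 0.41 and an adjusted p of 0.0119. The list median of -0.44 was 0.07 without empty-vector library 3.

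**Figure D3:**
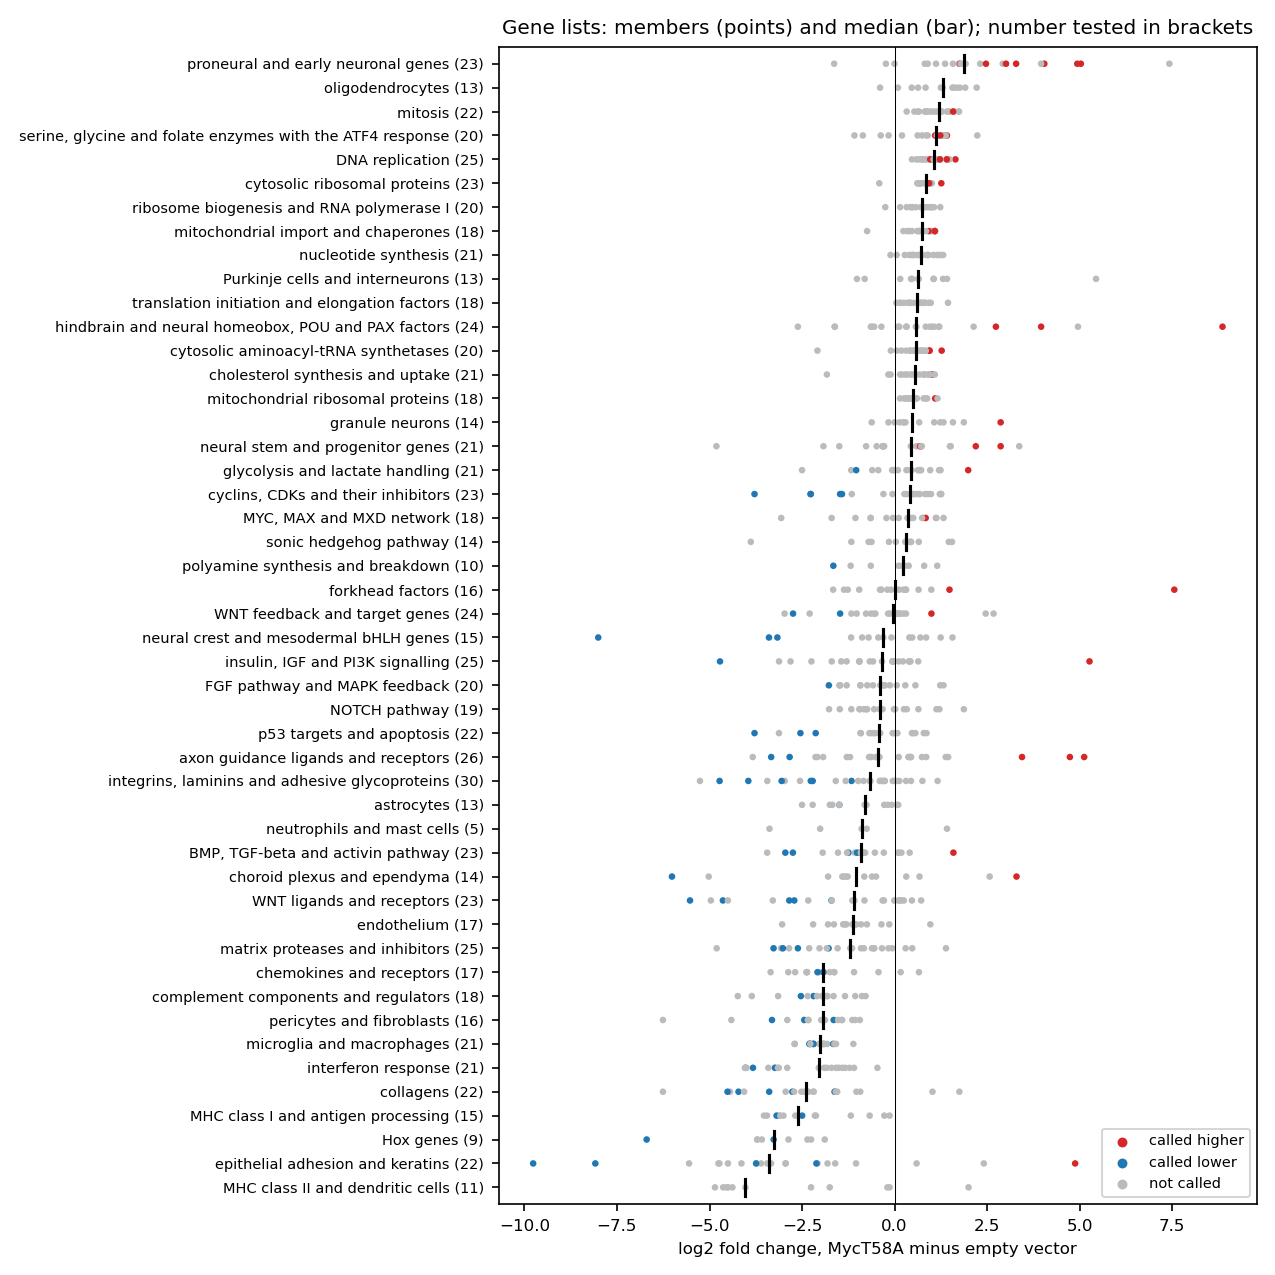
log2 fold change (MycT58A minus empty vector) of each tested member of the lists with at least 5 tested genes (points; red called higher, blue called lower, grey not called) and the list median (black bar), ordered by the median; the number tested is in brackets. Proneural genes are at the top with a median of 1.87, and MHC class II genes at the bottom with -4.03, where no gene was called and the median was -0.77 without empty-vector library 2.

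Among neural genes, the calls were all higher with MycT58A on the proneural list, at levels mostly far under the control cerebellum. Of 23 proneural and early neuronal genes, 7 were called higher and none lower, and 14 lay above every empty-vector library. Of all genes, 3.28% were called higher and 18.2% lay above every empty-vector library. The list median was 1.87. The summed level was 82.3, 242 and 305 CPM with the empty vector, 490, 580 and 487 with MycT58A and 4027 to 4736 in the controls. Elavl4, an RNA-binding protein of neurons, was at 0.719, 0.892 and 0.397 CPM against 3.53, 7.77 and 5.24 (log2 fold change 3.01, SE 0.37, adjusted p 0.00831), with 136 to 160 in the controls. Ebf3, a factor of migrating neurons, was at 0.171, 0.425 and 0.567 CPM against 2.55, 5.57 and 3.07. Nhlh1, a bHLH factor of newborn neurons, was at 0, 0.0849 and 0.510 CPM against 2.16, 10.5 and 5.75, and was at 0, 0.0443 and 0 in the controls. Nhlh1 and Insm1 thus were above the controls in all 3 MycT58A tumours, while Elavl3 (11.0, 23.1 and 15.9 CPM, controls 336 to 377) and Map2 (56.0, 67.7 and 53.2, controls 665 to 792) were not. For Nhlh1 the fold of 32.7 became 141 without empty-vector library 3 and 21.1 without library 1 or without MycT58A library 2, and for Elavl3 and Map2 the folds of 5.54 and 3.41 became 10.5 and 5.49 without empty-vector library 2. Markers of cerebellar neurons were also read, and bulk RNA cannot assign them to host or tumour cells. The 14 granule neuron genes, which include Zic1, summed to 18.1, 75.3 and 43.3 CPM with the empty vector. They summed to 112, 77.5 and 145 with MycT58A, against 5706 to 7684 in the controls. The 13 Purkinje and interneuron genes summed to 160 to 343 and to 219 to 245 CPM, against 11580 to 13330. Their part in the result was not tested.

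Of 21 neural stem and progenitor genes, Slc1a3, Zic1 and Zic2 (14.3%) were called higher, against 3.28% of all genes. Slc1a3, the glutamate transporter of radial glia and Bergmann glia, was at 15.6, 53.2 and 18.1 CPM against 98.4, 145 and 155, a 4.58-fold difference that was 7.88-fold without library 2. The list's median of 0.44 turned to -0.27 without MycT58A library 1. That same library had more oligodendrocyte RNA (13 genes, summed at 718 CPM) than the other MycT58A libraries (60.8 and 94.2) and the empty-vector tumours (83.7 to 311), and the oligodendrocyte median of 1.30 became -1.57 without it. Among 24 homeobox, POU and PAX genes, Lhx2 was called higher beside Pou3f4 and Pax3 (12.5%), against 3.28% of all genes. Lhx2, a LIM factor of forebrain and eye progenitors, was at 13.2, 61.8 and 17.0 CPM against 229, 229 and 157, with at most 0.187 in the controls, and its 6.67-fold difference was 13.6-fold without empty-vector library 2. Of 27 Hox genes, which pattern the trunk, only 9 had enough reads to be tested. All 9 had a negative difference, with a median of -3.27. Of the 9, 2 (22.2%) were called, against 5.02% of all genes called lower. Hox levels were highest with the empty vector, so the read filter favoured genes that were high there. The shared sign was thus partly fixed in advance. Hoxb9 was at 38.2, 24.6 and 51.0 CPM against 3.99, 4.65 and 3.15 and was called in both fits. Hoxa7 was at 6.44, 0.934 and 9.58 CPM against 0, 0.142 and 0, from 379 and 4 reads, so its fitted fold of 104 became 1074 without MycT58A library 2. The summed Hox level was 89.0, 29.8 and 169 CPM with the empty vector, 11.6, 9.76 and 8.18 with MycT58A, and under 1 in each control. Foxp1, a forkhead repressor, was higher at 71.2, 77.7 and 68.0 CPM against 32.6, 26.5 and 18.4. Mef2c and Tbx15, mesodermal and crest factors, were lower, and for Mef2c the 10.5-fold difference was 3.68-fold without empty-vector library 3.

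Extracellular matrix genes that were called on the collagen and protease lists were lower with MycT58A, and their level varied with the empty-vector library. Of 22 collagens, 5 were called lower and none higher, and 10 lay under every empty-vector library. Of all genes, 5.02% were called lower and 13.6% lay under every empty-vector library. The collagen median was -2.38, or -1.48 without library 2. The summed level was 3288, 12620 and 10140 CPM with the empty vector, 1053, 1182 and 799 with MycT58A and 290 to 362 in the controls. Col6a2, of the microfibrils around cells, was at 171, 917 and 151 CPM against 20.2, 18.6 and 15.4, a 22.8-fold difference that was 8.89-fold without library 2. Adamts2, which trims procollagen, was at 59.9, 301 and 74.2 CPM against 2.70, 3.05 and 1.11, a 63.1-fold difference that was 29.1-fold without library 2. Ecm1, a secreted matrix glycoprotein, was at 129, 326 and 138 CPM against 4.64, 4.58 and 8.14 (log2 fold change -5.09, SE 0.46, adjusted p 0.00378). Fmod, a proteoglycan that guides collagen fibrils, was at 255, 108 and 47.1 CPM against 5.54, 3.05 and 6.14, a 27.9-fold difference that was 15.8-fold without library 1. Of 25 proteases and inhibitors, 4 (16.0%) were called lower, against 5.02% of all genes. Adam19, a membrane sheddase (chr11:46055992-46147343), was at 37.8, 49.8 and 46.0 CPM against 5.58, 4.72 and 3.54. Timp2, which blocks matrix metalloproteinases, was at 375, 431 and 182 CPM against 46.0, 42.5 and 33.6. Htra1, a secreted protease, was at 193, 576 and 345 CPM against 35.1, 32.7 and 23.4, below the controls (250, 234 and 305). Ecm1, Adam19, Timp2 and Htra1 were called in both fits.

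Among adhesion genes, the calls were nearly all lower. Of 30 integrins, laminins and adhesive glycoproteins, 6 were called lower and none higher, against 5.02% and 3.28% of all genes. Itga5, the fibronectin receptor chain, was at 94.2, 95 and 78.0 CPM against 16.5, 28.4 and 12.7 (log2 fold change -2.21, SE 0.35, adjusted p 0.0143). Sparc, a matrix glycoprotein, was at 920, 3173 and 1791 CPM against 236, 294 and 181, with 949 to 2102 in the controls. Lama2, a laminin chain, was called although its groups overlap, at 116, 148 and 5.16 CPM against 5.83, 8.20 and 3.37. Sdc3, a neural heparan sulfate proteoglycan, was at 424, 367 and 184 CPM against 47.1, 27.1 and 30.9. Jup, the plakoglobin of desmosomes and a relative of beta-catenin, was at 135, 124 and 174 CPM against 39.0, 24.7 and 36.6 (log2 fold change -2.11, SE 0.23, adjusted p 0.00548). Jup and Sdc3 were called in both fits. The keratins Krt5 and Krt14 were high in 1 library: Krt5 was at 14.2, 1.49 and 129 CPM against 0.072, 0.0355 and 0.0426, and Krt14 at 1.16, 1.40 and 43.8 against 0.036, 0 and 0.128. The library with the most keratin is empty-vector library 3, and without it the fitted folds fell from 869.7 to 145 for Krt5 and from 272 to 22.8 for Krt14. For Krt14 it was 667 without MycT58A library 3 and 181 without MycT58A library 2. Cldn3, a claudin of tight junctions, was higher at 1.87, 2.13 and 1.92 CPM against 0, 0.0425 and 0.170, from a low level. Its fold of 29.4 became 81.5 without empty-vector library 3 and 18.7 without library 1.

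Markers of pericytes and fibroblasts were read beside the matrix genes. All 16 tested markers had a negative difference. Of these, 4 lay under every empty-vector library and 3 were called, against 13.6% and 5.02% of all genes. The summed level of the markers was 3667, 12260 and 6572 CPM with the empty vector and 1450, 1823 and 1639 with MycT58A, with 766 to 857 in the controls. The list includes Col1a1 and Col3a1, which were also counted among the collagens. In empty-vector library 3 they were at 6006 and 165 CPM, most of the sum. Without them the sum of library 3 lay under those of all MycT58A tumours, so the summed separation there rests on collagen. Pdgfrb, a receptor of pericytes, was at 134, 224 and 52.3 CPM against 31.1, 22.6 and 21.9, and Pdgfra, of fibroblasts and glial precursors, at 177, 163 and 58.6 against 50.9, 43.3 and 33.3. None of the tested markers was at 0 in a whole group. Fewer cells of a type and less RNA per cell cannot be told apart in such bulk samples, and the part of these cells in the matrix result was not tested. The 17 endothelial markers had no call. Their sum was 118, 675 and 274 CPM with the empty vector and 165, 227 and 131 with MycT58A, so the groups overlap and library 2 is highest.

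Of the 21 microglia and macrophage genes, all had a negative difference. Of these, 15 lay under every empty-vector library and 7 were called, against 13.6% and 5.02% of all genes. The list median was -2.02, or -1.42 without empty-vector library 2. The summed level was 731, 1120 and 612 CPM with the empty vector and 263, 120 and 182 with MycT58A, which is under the controls (298 to 385). Cd68, a lysosomal protein of macrophages, was at 26.7, 21.3 and 21.3 CPM against 8.81, 5.75 and 7.37 (log2 fold change -1.66, SE 0.26, adjusted p 0.0134). Cx3cr1, the fractalkine receptor of microglia, was at 47.8, 66.3 and 15.5 CPM against 12.1, 4.29 and 10.1. Trem2, a lipid receptor of microglia, was at 9.90, 6.07 and 6.12 CPM against 1.69, 0.816 and 2.09. C3ar1, the receptor of complement fragment C3a, was at 13.9, 19.6 and 7.94 CPM against 2.16, 1.63 and 3.37. The chemokine Cxcl14 was at 458, 411 and 112 CPM against 72.8, 103 and 55.9.

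Interferon and antigen presentation genes had their highest level in 1 empty-vector library. All 21 interferon response genes had a negative difference. Of these, 10 lay under every empty-vector library and 3 were called, against 13.6% and 5.02% of all genes. The list median of -2.05 was -0.80 without empty-vector library 2. The sum of the list was 134, 679 and 164 CPM with the empty vector, 95.1, 75.1 and 89.6 with MycT58A and 134 to 205 in the controls. Ifit1, which binds viral RNA, was at 4.11, 25.7 and 9.07 CPM against 1.26, 0.390 and 0.725, a 16.3-fold difference that was 8.25-fold without library 2. The 15 MHC class I genes had a median of -2.60, or -0.48 without library 2. Of the 15, 2 (13.3%) were called lower, against 5.02% of all genes. Tapbp, which loads peptides onto class I, was at 89.9, 189 and 40.5 CPM against 19.1, 18.0 and 19.6, a 5.65-fold difference that was 3.46-fold without library 2. H2 genes share near-identical copies and are uncertain. No gene was called among 11 of MHC class II and dendritic cells, whose median of -4.03 was -0.77 without library 2, and H2-Ab1, a class II chain, was at 2.71, 95.2 and 4.76 CPM against 3.42, 0.674 and 0.810. Lymphocyte genes were hardly present, with 3 of 16 tested and none called.

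**Figure D4:**
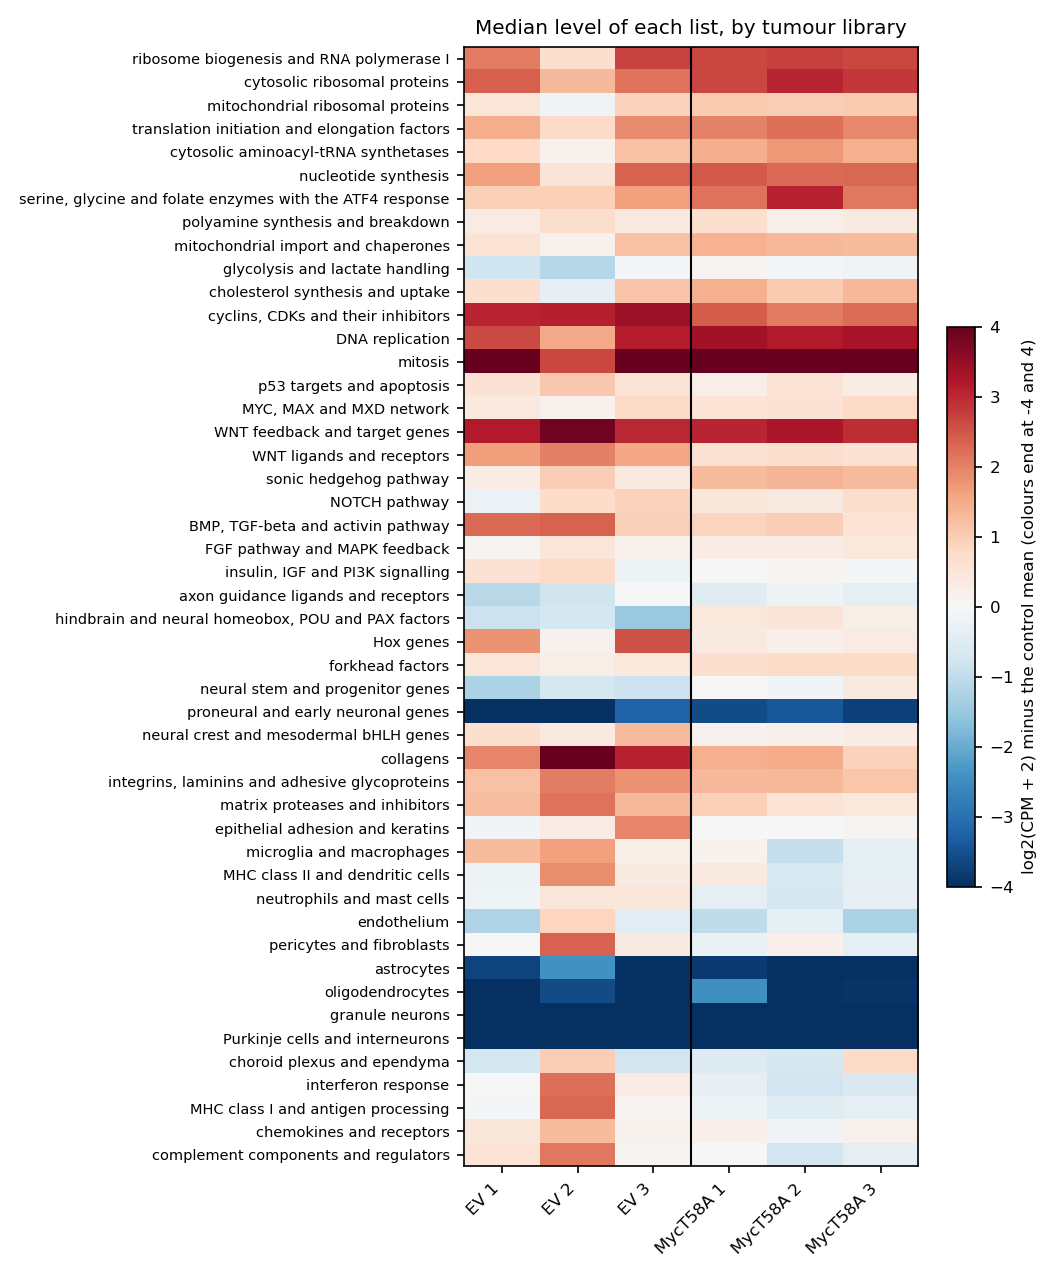
Median level of each list in the 6 tumour libraries as log2(CPM + 2) minus the control mean, red above and blue below the controls, with colours ending at -4 and 4; the black line parts the empty-vector from the MycT58A libraries. Empty-vector library 2 is the reddest column in collagens (4.24), pericytes (2.34) and interferon response (2.19), and the palest in DNA replication (1.52).

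The median level of whole chromosomes also differed between the tumours. For 10284 genes with a mean of at least 10 CPM, the median of log2(CPM + 2) minus the control mean was taken for each chromosome. The 3 MycT58A libraries agreed, with a range of at most 0.106 on every one of 20 chromosomes, and the controls ranged over at most 0.081. The empty-vector libraries ranged over 0.161 to 0.892 and were wider on all 20. Chromosome 8 was high in every MycT58A library, at 0.583, 0.615 and 0.588, against -0.231, 0.450 and 0.215 with the empty vector. Over all chromosomes the medians were 0.205, 0.194 and 0.218 with MycT58A and 0.157, 0.018 and 0.093 with the empty vector. Empty-vector library 2 was thus also high on chromosome 8 for its own level, at 0.450 against 0.018. Its share of genes called higher was 10.5% (81 of 774), against 3.28% of all genes. Chromosomes 19 and 2 followed with 8.12% and 7.05%. Chromosome 3 was at 0.983 in empty-vector library 1 alone, against 0.091 and 0.371 in the others and 0.269 to 0.346 with MycT58A. Chromosome 14 was at 0.562 in empty-vector library 2, chromosome 16 at -0.366 in the same library, and chromosome 19 at -0.467 in library 3. Of genes called lower, chromosome 14 had the largest share, 10.2% (51 of 502), and chromosome 3 had 8.43%, against 5.02% of all genes. Hand2 lies on chromosome 8 and was lower, so single genes departed from the median of their chromosome. Copy number was not measured, and its part in these values was not tested.

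**Figure D5:**
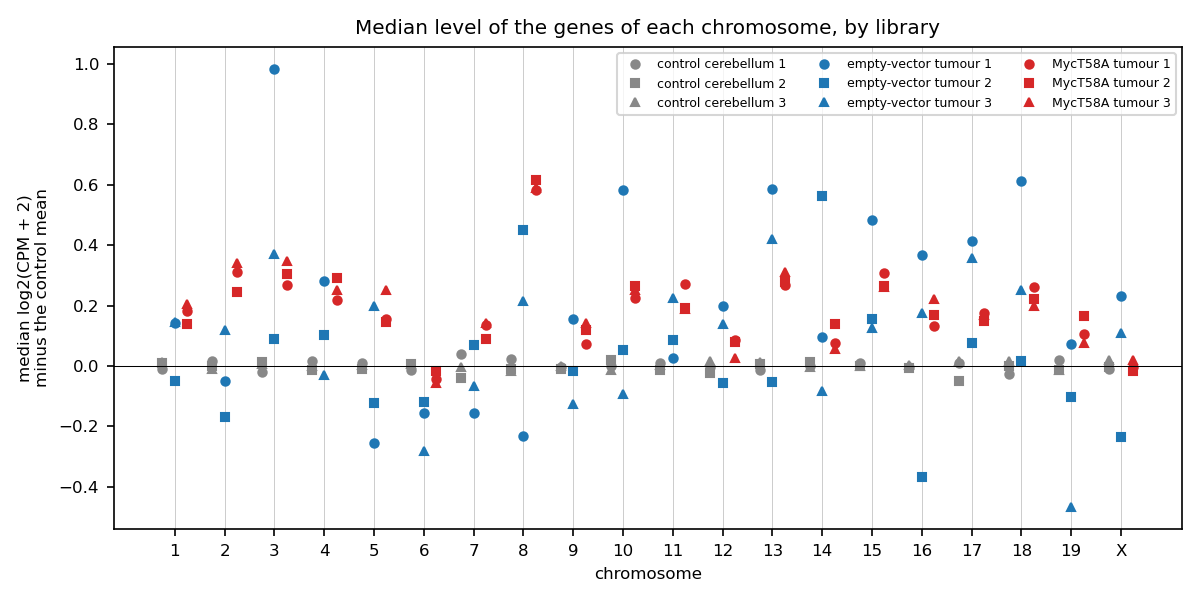
Median of log2(CPM + 2) minus the control mean over the genes of each chromosome, for each of the 9 libraries (grey controls, blue empty-vector tumours, red MycT58A tumours; circle, square and triangle are replicates 1, 2 and 3). The red points lie within 0.106 of each other on every chromosome and at 0.583 to 0.615 on chromosome 8, while the blue points spread by up to 0.892.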

How the data were processed

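The authors deposited whole-number read counts per gene symbol. The submitters' processing notes name bcl2fastq, TopHat, edgeR and the mm10 build. How strand was used, the counter and tool versions are not given in the sources here, so overlapping and antisense genes cannot be told apart. Low genes were removed by filterByExpr (edgeR 4.0.16 in R 4.3.3, minimum count 10 and total 15), and the rest were scaled by TMM and tested with glmQLFit and glmQLFTest in 1 fit of 9 libraries with 1 mean per group (6 residual degrees of freedom); the 9 libraries share 1 dispersion per gene. P-values were adjusted over all 15171 genes (Benjamini-Hochberg, threshold 0.05) and measure the spread between these libraries. Each SE is the absolute log2 fold change divided by the square root of F. Positions are from GENCODE vM21, which held 23695 of the symbols.

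The comparison and its 50 gene lists (993 genes, 992 of them in the table, 22 on more than 1 list) were chosen with earlier results of these data known. The named genes are the engineered genes, the 15 higher and 15 lower called genes with the widest gap between the groups' nearest libraries as log2(CPM + 0.5) and at least 5 CPM in the higher group, the leading members of each list, and the named genes of the 34 called with the 6 tumour libraries. Other list members were singled out once their values were known. The 16 alternatives were DESeq2 1.42.0, voom with weights per group (limma 3.58.1), a fit of only the 6 tumour libraries, other scaling (RLE, or library size alone), other filters (none, or 1 CPM in every library of a group) and leaving out each library; growth lists without chromosome 8 were added after seeing the data. The gene test was run on simulated data with the same dispersion in every group. That setting does not cover the larger spread of the empty-vector libraries seen here, and its results are not quoted. Plots used Python 3.11.15 and matplotlib 3.10.9.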

Additional observations from a re-analysis of the deposited data

How the results depend on the processing

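The number of genes called was 1259. It was 34 with only the 6 tumour libraries, 449 with limma voom and weights per group (424 of them shared) and 3446 with DESeq2 (1252 shared). Leaving out 1 library gave 36 to 3977 calls. The share of called genes that were higher with MycT58A was 39.6%. It was 38.6% with DESeq2, 34.7% with RLE scaling, 24.3% with library size alone and 30.5% without the low-count filter. With 1 CPM in all libraries of a group it was 32.4%, with only the 6 tumour libraries 29.4% and with weights per group 31.4%. Leaving out 1 library gave 26.0% to 53.7%. The cause of these shifts was not tested. The unadjusted p was under 0.05 for 4724 genes. No called gene that the text names changed sign under any of the 16 alternatives. This was nearly fixed in advance, since the groups did not overlap for 99.0% of called genes. Of the 111 called genes named, 30 were called with the 6 tumour libraries and 13 under every alternative that gave a value. Of 800 list medians under the alternatives, 29 had another sign and 60 moved by more than the spread between libraries. Those with another sign were the lists of NOTCH, WNT feedback, axon guidance, choroid plexus, erythroid, forkhead, lymphocyte, neural crest, neural stem and oligodendrocyte genes. No paired analysis was possible because the labels give no numbers that pair tumours between groups. Leaving out empty-vector library 2 moved 35 of the 50 list medians by over 1.5 times or to another sign, library 3 moved 22 and library 1 moved 11, against 4 to 9 for a MycT58A library. Groups hold 3 libraries each, at 16631523 to 30410089 counts, and some genes rest on few reads in 1 group: Foxa2 had 0, 14 and 1 with the empty vector and Hoxa7 had 0, 4 and 0 with MycT58A.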
